A study of Mus musculus with 22 samples.

Results

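The genes of the TIGIT, CD96 and DNAM-1 receptor family and of the ligands they read were followed through 22 RNA sequencing libraries of mouse natural killer (NK) cells and a pancreatic cancer line. The 8 genes were chosen by name as receptors and ligands of 1 family, and all 8 were matched to the 78298 genes of the count tables. NK cells are innate lymphocytes that weigh activating against inhibitory signals from the surface of a target cell. DNAM-1, encoded by Cd226, is an activating receptor that binds PVR (CD155) and nectin-2 (CD112) on target cells. TIGIT and PVRIG (CD112R) are inhibitory receptors that compete with it, TIGIT mainly for PVR and PVRIG for nectin-2, and CD96 also binds PVR. Nectin-1 and nectin-3, encoded by Nectin1 and Nectin3, are adhesion molecules of the same immunoglobulin family, and mouse CD96 also binds nectin-1.

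The groups were co-cultures of Panc02 with splenic NK cells of female or male mouse donors, held for 24 h with interleukin-2 (IL-2), and NK monocultures of each sex held for 24 h with IL-2. Fresh NK cells of each sex, with no treatment, had 2 libraries per sex, as did each culture condition. Panc02 tumours grown as allografts had 4 libraries from female and 4 from male hosts, and Panc02 cultured alone, a pancreatic cancer line, had 2. The series asks whether sex shapes the NK cell response to pancreatic cancer. Every tumour sample thus carries 1 cell line. The labels give neither strain nor age of the animals, do not say whether the cell types of a co-culture were separated, and do not say that each library came from its own animal. P-values therefore measure the spread between these libraries, which may in part be technical. RNA of positively sorted NK cells was taken on oligo(dT) beads and RNA of cell experiments and tumours with TRIzol, per the labels' protocols. If the sorted cells are the fresh ones, culture and extraction method cannot be told apart in comparisons with fresh cells.

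Total counts ranged from 13025549 to 46842646 per library. The summed level of 8 NK markers was 10383 to 11743 CPM (counts scaled to equal library totals) in monoculture and 9441 to 10082 CPM in fresh cells, so these libraries carry the labelled cell type. In cultured Panc02 all 9 T cell markers and 6 of 8 NK markers were at 0, and the other two NK markers were Il2rb, below 0.1 CPM, and Eomes, at 18.7 CPM. Marker sums of some other cell types were lower in monocultures than in fresh cells: 4 erythroid markers summed to 25.4 to 53.7 CPM in monoculture against 207 to 332 CPM in fresh cells, and 5 dendritic cell markers to 9.44 to 13.2 against 84.9 to 104.7 CPM. Platelet markers (5 genes) summed to 23 to 52.4 CPM in monoculture against 160 to 264 CPM in fresh cells. T cell markers summed to 153 to 178 CPM in monoculture, and to 117.8 and 123.5 CPM in fresh female against 100.3 and 78.3 CPM in fresh male cells. Of 7 T cell markers tested, Trbc2 was higher and Cd8a, Cd3d and Cd4 were lower in monoculture. The sum of 4 epithelial markers was also higher in monoculture.

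Cd96 and Nectin3 lie near each other on chromosome 16 of GRCm39, at 45856020 to 45940614 and 46208069 to 46318888, with a gap of 267.5 kb that holds 6 genes. Tigit (43469230 to 43484509) lies 2371.5 kb from Cd96 on the same chromosome and strand. Nectin2 (19450569 to 19484408) and Pvr (19637503 to 19655085) lie 153.1 kb apart on chromosome 7. Pvrig is on chromosome 5 (138340223 to 138341819) and Nectin1 on chromosome 9 (43655281 to 43743955). Reads were counted by strand. A pseudogene of Pvrig, Pvrig-ps, stood at 0.809 CPM in monoculture, and multi-mapping reads were counted, so part of the Pvrig count is uncertain.

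RefSeq promoters (GRCm38.p6) were held for 5 of the 8 genes. They are shown for the 3 receptors that moved together in culture and for Nectin2, which moved the other way, each from 250 bases before to 50 bases after the start. Capitals mark matches on either strand to letters bound by RUNX factors (TGTGGT, read as ACCACA on the other strand), STAT factors (TTCNNNGAA) or T-box factors (GGTGTGA). The Tigit window is chr16:43664135-43664434 (minus strand), that of Cd96 chr16:46120199-46120498 (minus), that of Pvrig chr5:138341681-138341980 (plus) and that of Nectin2 chr7:19749524-19749823 (minus).
Tigit: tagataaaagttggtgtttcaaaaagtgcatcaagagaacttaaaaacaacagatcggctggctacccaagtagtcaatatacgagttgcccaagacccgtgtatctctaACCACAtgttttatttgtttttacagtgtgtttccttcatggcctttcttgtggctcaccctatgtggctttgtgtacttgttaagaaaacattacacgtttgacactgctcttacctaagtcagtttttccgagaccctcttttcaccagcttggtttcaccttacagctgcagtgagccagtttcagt
Cd96: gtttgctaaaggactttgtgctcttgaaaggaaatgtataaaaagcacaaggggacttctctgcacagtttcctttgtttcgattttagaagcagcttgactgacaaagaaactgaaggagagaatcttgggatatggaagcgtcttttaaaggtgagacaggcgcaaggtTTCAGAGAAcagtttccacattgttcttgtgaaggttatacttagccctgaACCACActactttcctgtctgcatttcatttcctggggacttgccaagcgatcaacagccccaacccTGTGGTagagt
Pvrig: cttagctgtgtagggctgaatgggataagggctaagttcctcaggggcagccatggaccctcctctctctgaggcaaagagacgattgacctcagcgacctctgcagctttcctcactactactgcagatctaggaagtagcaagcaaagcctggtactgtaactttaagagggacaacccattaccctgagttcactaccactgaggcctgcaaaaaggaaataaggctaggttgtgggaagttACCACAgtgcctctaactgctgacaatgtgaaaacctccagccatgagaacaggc
Nectin2: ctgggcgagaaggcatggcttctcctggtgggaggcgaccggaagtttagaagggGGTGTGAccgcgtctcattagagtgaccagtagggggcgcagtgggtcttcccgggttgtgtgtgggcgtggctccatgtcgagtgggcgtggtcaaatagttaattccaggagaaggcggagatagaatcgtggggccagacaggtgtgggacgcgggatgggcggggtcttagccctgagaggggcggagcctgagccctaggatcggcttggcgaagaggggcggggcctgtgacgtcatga
Each of the 3 receptor windows held the RUNX letters, against 16.8% of all 32851 promoters of that length. The windows of Nectin2 and Nectin3 held none, and Nectin3 was also called higher in monoculture. The STAT letters stood only in the Cd96 window of the 5 searched and in 8.3% of all promoters, and the T-box letters only in that of Nectin2 and in 3.98%. AP-1 letters (TGANTCA) were in none of the 5 and in 7.81% of all. GC content was 41.3% for Tigit, 43.7% for Cd96, 50.3% for Pvrig and 62.7% for Nectin2, with 5, 4, 2 and 20 CpG. These are descriptions of letters, not of bound sites.

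Levels compared between genes are in TPM, a unit that divides out gene length. In cultured Panc02, Tigit stood at 698.0 and 633.3 TPM, rank 190 of all genes by mean. Pvr followed at 39.6 and 40.6 TPM, then Nectin2 at 16 and 18.4 and Nectin1 at 2.67 and 3.9 TPM. The tumour line alone thus carried a high Tigit count beside its ligands, while Pvrig, Cd96, Nectin3 and Cd226 had 4, 6, 2 and 0 counts over both libraries. For Cd226, a floor of 3 counts over both libraries would be 0.0337 CPM. On the opposite strand next to Tigit, Zbtb20 stood at 56.4 CPM in Panc02 and Drd3 at 0. In monoculture the order was Tigit (341.2 ± 12.1 TPM, SD, n = 4), Cd96 (229.3 ± 9.43), Pvrig (85.1 ± 5.77), Cd226 (15.5 ± 2.58) and Pvr (4.66 ± 0.703), with no overlap between neighbours. In fresh cells Tigit (152.1 ± 91.8 TPM, n = 4) and Cd96 (91.8 ± 12) overlapped, and Pvrig (42.8 ± 6.06) stood above Cd226 (27.5 ± 3.34). Nectin2, Pvr and Nectin1 overlapped in fresh cells, at means of 4.15, 3.74 and 3.22 TPM.

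**Figure D1:**
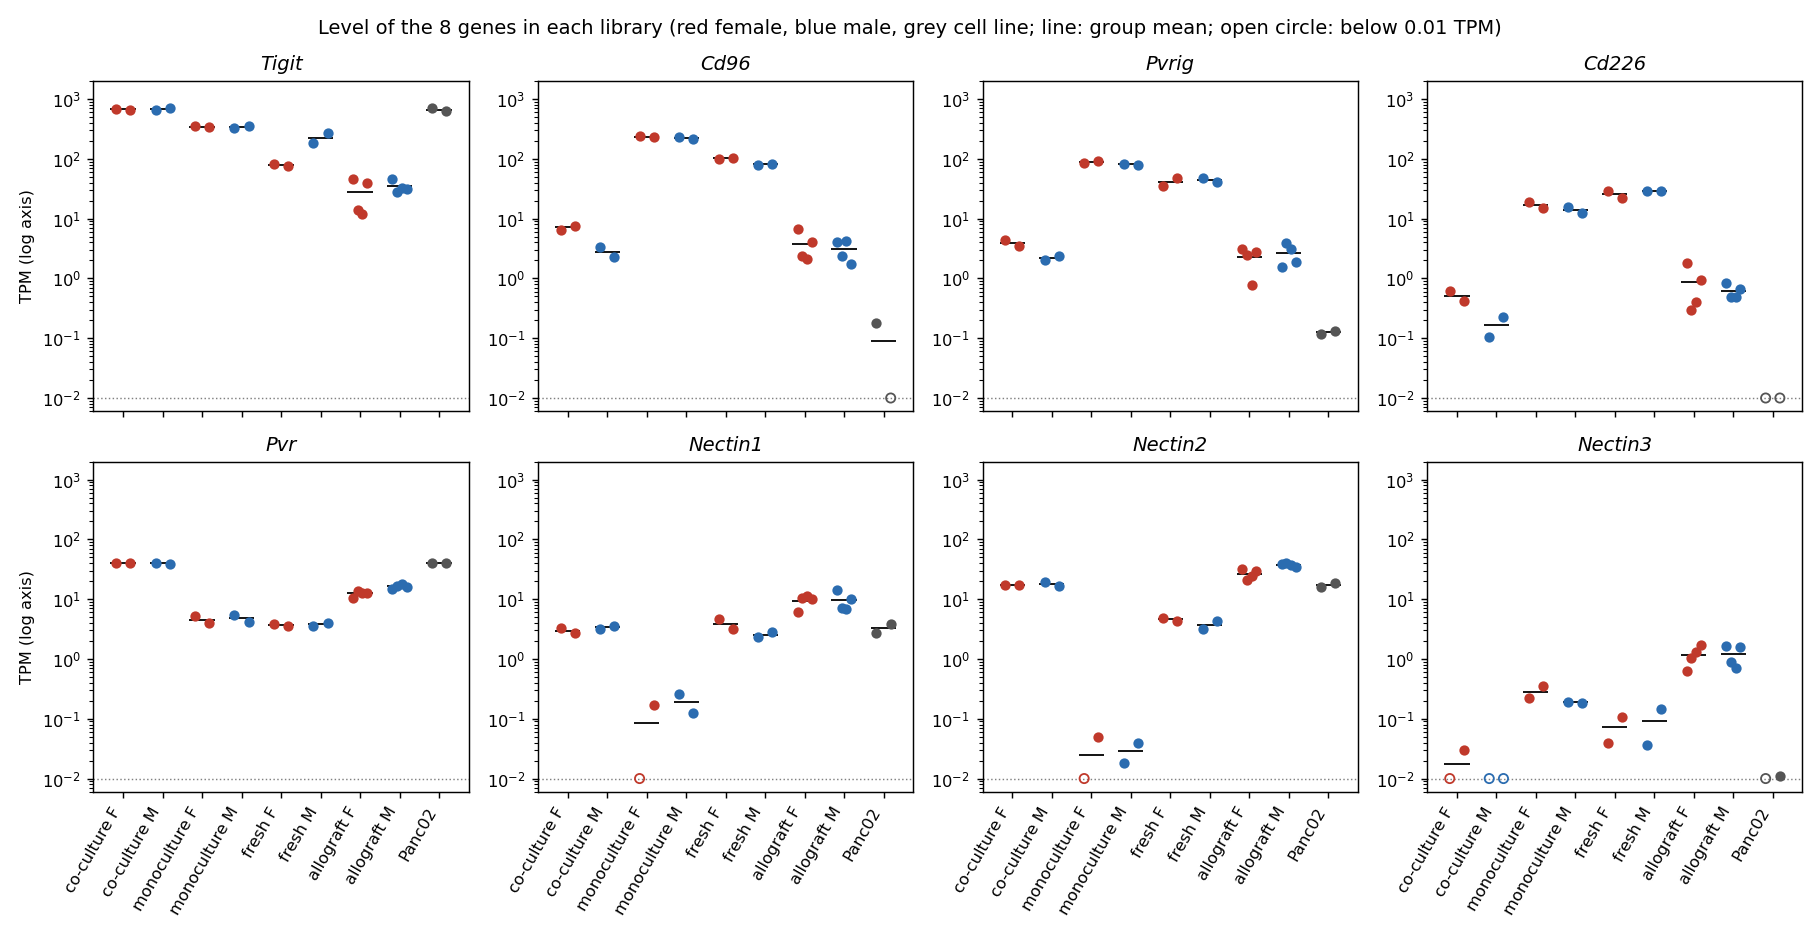
TPM of the 8 genes on a log axis, 1 point per library, with groups along the horizontal axis and a line at each group mean; open circles are values below 0.01 TPM. Tigit is as high in cultured Panc02 as in co-culture and is lower in all 8 allografts, while Cd96, Pvrig and Cd226 are high in NK libraries and near 0 in Panc02.

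The receptors moved apart in culture with IL-2. The inhibitory receptor genes Tigit and Pvrig and the paired receptor gene Cd96 were higher in monoculture than in fresh cells, and the activating receptor gene Cd226 (chromosome 18, 89195091 to 89290353) was lower. Tigit stood at 108.6 and 99.6 CPM in female and 101.3 and 111.3 CPM in male monocultures, against 24.9 and 24 CPM in female and 54.4 and 81.1 CPM in male fresh cells. The groups did not overlap, and the fitted log2 fold change was 1.46 ± 0.11 (SE, edgeR quasi-likelihood test with Benjamini-Hochberg adjustment, adjusted p = 1.38e-06). Cd96 stood at 178.6, 161.6, 168.9 and 162.8 CPM in monoculture against 73.6, 76.5, 57 and 59.6 CPM in fresh cells (log2 1.44 ± 0.06, edgeR adjusted p = 9.01e-12). Its lowest monoculture library was above its highest fresh library. Pvrig stood at 31.5, 32.4, 30.3 and 29 CPM in monoculture against 12.9, 17.5, 16.7 and 14.3 CPM in fresh cells (log2 1.12 ± 0.11, edgeR adjusted p = 4.11e-07). Cd226 stood at 31.2, 24, 25.6 and 20.9 CPM in monoculture against 47.5, 37.1, 46.9 and 46.8 CPM in fresh cells, again with no overlap, and fell by 0.73 ± 0.11 on the log2 scale (edgeR adjusted p = 3.83e-05).

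Set against Cd226 within a library, each of the other receptors gained in monoculture. The TPM ratio of Cd96 to Cd226 was 12.8 to 17.4 in monoculture against 2.72 to 4.62 in fresh cells. That of Tigit to Cd226 was 18.5 to 28.3 in monoculture against 2.79 to 9.21 in fresh cells, and that of Pvrig to Cd226 was 4.57 to 6.29 against 1.23 to 2.14. In bulk RNA such values cannot tell fewer cells of a type from less RNA per cell.

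**Figure D2:**
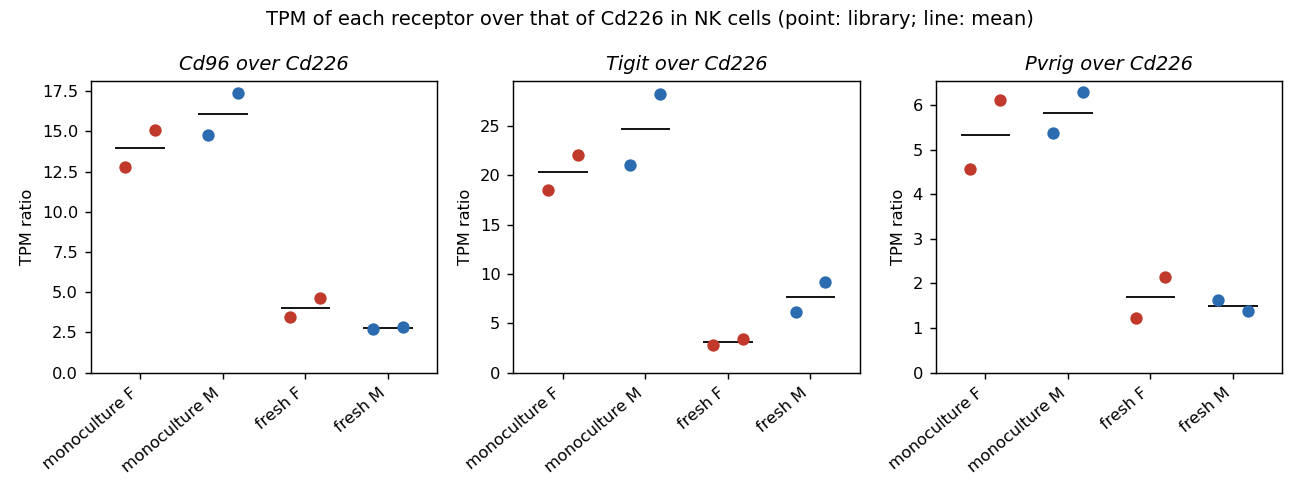
TPM of Cd96, Tigit and Pvrig divided by that of Cd226 in each NK library (points) with the group mean (line), for monoculture and fresh cells of each sex. Every monoculture ratio lies above every fresh ratio, and for Tigit the fresh male libraries lie above the fresh female ones.

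Of the ligand genes, Nectin2 and Nectin1 fell in monoculture and Pvr and Nectin3 stayed low in NK cells. Nectin2 had 0, 2, 1 and 2 counts in the monoculture libraries, at most 0.0553 CPM, against 5.8, 4.99, 3.59 and 4.89 CPM in fresh cells (log2 -6.81 ± 0.45, edgeR adjusted p = 3.83e-09). Nectin1 stood at 0, 0.36, 0.563 and 0.281 CPM in monoculture against 10.1, 7.14, 4.94 and 5.99 CPM in fresh cells (log2 -4.32 ± 0.39, edgeR adjusted p = 2.99e-07). The erythroid, dendritic cell and platelet markers given above also stood lower in monoculture, and their part in the fall of both nectin genes was not tested. Pvr stood at 10.7, 7.91, 11.1 and 8.65 CPM in monoculture against 7.91, 7.29, 7.06 and 8.17 CPM in fresh cells, and the ranges overlapped. Its log2 fold change of 0.42 ± 0.16 passed the edgeR test (adjusted p = 0.043) and failed with median-ratio size factors in edgeR (0.38 ± 0.16, adjusted p = 0.0666) and in DESeq2 (0.38 ± 0.19, adjusted p = 0.0881). It was also lost without monoculture female replicate 1, monoculture male replicate 4 or any 1 of the 4 fresh libraries (adjusted p = 0.0564 to 0.183). Nectin3 was low throughout, at 0.957, 1.44, 0.823 and 0.797 CPM in monoculture against 0.169, 0.461, 0.154 and 0.618 CPM in fresh cells (log2 1.65 ± 0.57, edgeR adjusted p = 0.0272). That call was lost without monoculture female replicate 2, either male monoculture, fresh female replicate 1 or fresh male replicate 4 (adjusted p = 0.0552 to 0.109). In all, 5 of the 8 genes were higher and 3 lower, against 45.2% of the 19623 genes tested that passed (23.1% higher, 22% lower), with a median log2 fold change of 0.77 over the 8 genes and 0.01 over all genes.

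Genes of Panc02 were low in monoculture. Nectin2 there was at most 0.278% of its Panc02 level, a share at which Panc02 RNA would bring 0.563 CPM of Tigit and 0.226 CPM of Pvr. The 4 epithelial markers summed to 14.1 to 26.7 CPM in monoculture, against 2.46 to 4.81 CPM in fresh cells and about 2550 CPM in Panc02. At the highest of these sums, 1.05% of that in Panc02, Panc02 RNA would bring 2.12 CPM of Tigit and 0.85 CPM of Pvr. Of the 4 markers Epcam, Cdh1 and Krt8 were higher in monoculture than in fresh cells, and Epcam stood at 4.02 ± 1.06 CPM in monoculture (SD, n = 4) and 0.982 ± 0.181 CPM in Panc02 (n = 2).

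Among 9 other genes of the nectin family and its partners, 6 were tested in NK cells, of which 2 were higher and 3 lower in monoculture (median log2 fold change -0.38, against 0.01 over all genes). Crtam, a receptor of activated NK and T cells for the nectin-like protein CADM1, was higher (40.4 ± 8.77 CPM in monoculture against 29.1 ± 2.22 in fresh cells, SD, n = 4 each, log2 0.55 ± 0.09, edgeR adjusted p = 8.94e-05). Afdn, which links nectins to the actin skeleton, was also higher (0.73 ± 0.07), and Cadm3, a nectin-like adhesion gene, was lower, at 0.134 ± 0.155 against 3.64 ± 1.42 CPM. Of 14 genes that signal with these receptors, 2 were higher and 7 lower (median -0.10). Ptpn6, which encodes the phosphatase SHP-1 that inhibitory receptors recruit, was higher by 0.96 ± 0.06, and Inpp5d, which encodes the phosphatase SHIP-1, by 0.30 ± 0.06. Itgb2, which encodes a chain of LFA-1, the integrin that works with DNAM-1, was lower (-0.99 ± 0.05), as was the kinase gene Lck (-0.97 ± 0.06).

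Female and male fresh cells differed in Tigit. It stood at 24.9 and 24 CPM in fresh female against 54.4 and 81.1 CPM in fresh male cells, without overlap, and was 2.81-fold lower in female cells (log2 -1.49 ± 0.16, edgeR adjusted p = 0.000995). The call was lost without fresh female replicate 1 (adjusted p = 0.072). Cd96 went the other way, at 73.6 and 76.5 CPM in fresh female against 57 and 59.6 CPM in fresh male cells (log2 0.35 ± 0.08, edgeR adjusted p = 0.0181), and this call was lost without any 1 of the 4 fresh libraries (adjusted p = 0.0504 to 0.169). The ratio of Tigit to Cd96 in TPM was 0.744 and 0.805 in fresh female against 2.27 and 3.23 in fresh male cells. These were 2 of the 8 genes, where 8.59% of all genes tested passed, 4.03% as higher and 4.57% as lower. The other 6 did not pass. T cell markers summed higher in the fresh female libraries, as given above, and 0 of the 7 tested passed for sex. The 2 regulatory T cell markers Foxp3 and Ikzf4 went the other way. They summed to 0.281 and 0 CPM in fresh female against 1 and 0.538 CPM in fresh male cells. At these low levels Foxp3 was not tested, and Ikzf4 did not pass for sex. The part of T cells of either kind in these differences was not tested.

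In monoculture the same genes did not separate the sexes. Tigit stood at 108.6 and 99.6 CPM in female against 101.3 and 111.3 CPM in male monocultures (log2 -0.06 ± 0.15) and Cd96 at 178.6 and 161.6 against 168.9 and 162.8 CPM (0.01 ± 0.08). By edgeR 0 of the 8 genes passed, and 0.0764% of all genes did, 0.0306% as higher and 0.0459% as lower. None of the 8 had an unadjusted p under 0.05, against 1048 of all genes, and DESeq2 called 38 genes in all and none of the 8. The sex difference in Tigit was itself different between monoculture and fresh cells, by 1.43 ± 0.22 on the log2 scale (interaction in edgeR, adjusted p = 0.0153), where 1.65% of all genes passed, 0.479% as higher and 1.17% as lower. That call was lost without any 1 of the 4 female libraries (adjusted p = 0.0539 to 0.167). Of the 8 genes, Tigit alone passed this interaction.

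Among the signalling genes, 4 were higher and 2 lower in fresh female cells. Cblb, a ubiquitin ligase that restrains lymphocyte activation, was lower, at 167.2 ± 11.4 CPM in fresh female against 286.2 ± 0.243 in fresh male cells (SD, n = 2 each, log2 -0.79 ± 0.08, edgeR adjusted p = 0.000166). In monoculture it was at 218.9 ± 10.6 CPM in female and 217.1 ± 4.1 in male cells, and its interaction was 0.78 ± 0.12 (edgeR adjusted p = 0.00582). Ptpn6 was at 244.8 ± 8.03 CPM in fresh female against 180.6 ± 1.21 in fresh male cells (log2 0.42 ± 0.08) and Vav1, an exchange factor downstream of DNAM-1, at 248.2 ± 24.3 against 184.2 ± 0.533 (0.42 ± 0.08). Itgal, which encodes the other chain of LFA-1, was lower in fresh female cells (-0.31 ± 0.08, edgeR adjusted p = 0.0275). These 3 calls rested on single libraries. Ptpn6 was lost without fresh female replicate 1 (0.31, adjusted p = 0.079). Vav1 was lost without fresh female replicate 1 (0.23, adjusted p = 0.185) or either fresh male library (adjusted p = 0.0508 and 0.0552). Itgal was lost without any 1 of the same 3 libraries (adjusted p = 0.0939 to 0.14) and in the fit over 12 libraries (0.056). Of the nectin family and partners, 0 of the 6 tested passed for sex in fresh cells.

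**Figure D3:**
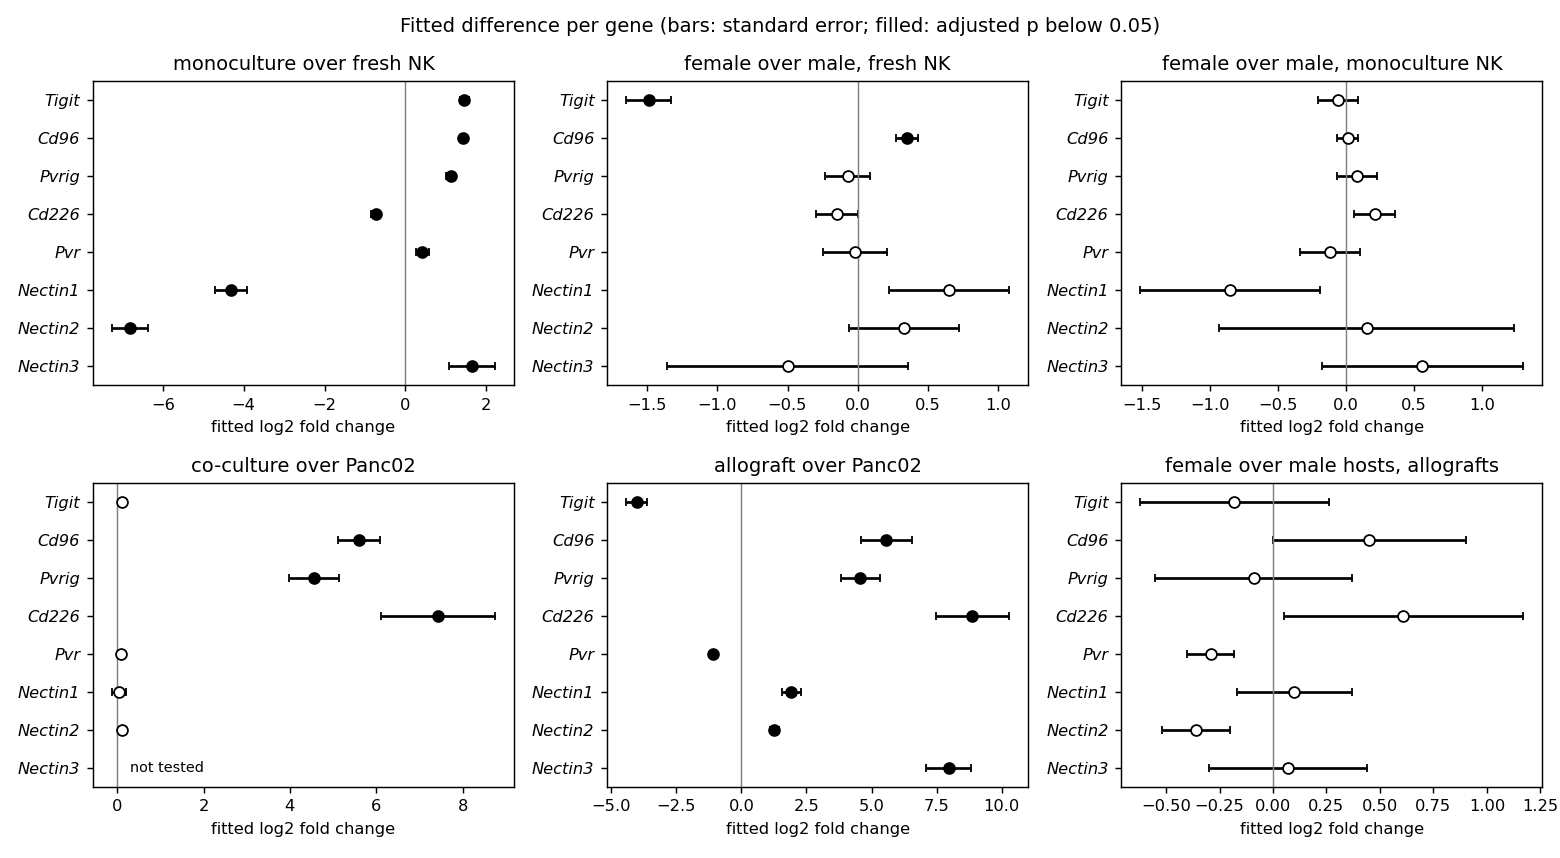
Fitted log2 fold change (points) with its standard error (bars) of each gene in 6 comparisons, filled where the adjusted p was below 0.05. Receptor genes other than Cd226 are higher in monoculture, Tigit is lower in female than male fresh cells, and Tigit and Pvr are the members lower in allografts than in cultured Panc02.

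The genes most like each receptor across the 8 monoculture and fresh libraries were sought over 10741 genes by Pearson correlation of log2(CPM + 1). The closest were Actg1 (0.994) for Tigit, Sars (0.996) for Cd96, Camk2d (0.996) for Pvrig and Mcm8 (0.990) for Cd226. Among the 5 nearest to Cd96 was Tnfrsf18 (0.994), which encodes the costimulatory receptor GITR. The 8 libraries fall into 2 conditions and share them across genes.

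Co-cultures carried mostly Panc02 RNA. Summed over 474 NK-restricted genes, taken as genes with at least 10 CPM in monoculture and at most 0.1% of that in Panc02, the NK share was 3.61% and 4.12% with female and 2.37% and 2.07% with male NK cells. By the median of those genes it was 2.8% and 3.46% with female and 2.07% and 1.78% with male cells. Tigit in co-culture therefore reads mainly the tumour line. It stood at 211.7 and 204.6 CPM with female and 204.3 and 221.2 CPM with male NK cells, against 212.5 and 192.8 CPM in Panc02 alone (log2 0.11 ± 0.04, edgeR adjusted p = 0.0978). Without co-culture male replicate 4 it passed (0.14 ± 0.05, adjusted p = 0.0485), and without Panc02 replicate 1 or 2 the difference was 0.18 or 0.04 and did not. The sum expected from the summed NK share and the Panc02 share was 198.6 to 200.7 CPM, of which NK cells gave 2.2 to 4.28 CPM. The observed level was 1.02 to 1.1 times that sum. With so small an NK part, a change of Tigit within the NK cells of a co-culture was not tested, and no detection limit was computed.

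No ligand in co-culture passed the test against Panc02 alone. Pvr stood at 84.2 and 85.4 CPM with female and 84.5 and 80.2 CPM with male NK cells, against 80.2 and 82.2 CPM in Panc02 (log2 0.09 ± 0.05, edgeR adjusted p = 0.183). Nectin2 differed by 0.12 ± 0.09 and Nectin1 by 0.04 ± 0.16, and neither passed. Nectin3, with 7 counts over 4 libraries, was not tested. Cd96, Pvrig and Cd226 were higher in co-culture than in Panc02, which carries almost none of them. They were 3 of the 7 genes tested, where 18.3% of all genes passed, 12.2% as higher and 6.12% as lower.

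Within NK-restricted genes, co-culture could be set against monoculture for Cd96 and Cd226 only, since Panc02 reads exclude the others. Cd96 stood at 4.81 and 5.71 CPM in co-culture with female and 2.47 and 1.66 CPM with male NK cells, which is 2.83%, 3.35%, 1.49% and 1% of its level in monoculture of the same sex. The male values lie below both estimates of the NK share, and the female values below the summed one and near the median one. Relative to the other NK-restricted genes Cd96 fell by 0.34 ± 0.11 on the log2 scale (edgeR adjusted p = 0.0191), and 43.9% of the 476 genes passed, 23.9% as higher and 20% as lower. The call was lost without co-culture male replicate 5 (adjusted p = 0.0898) and without monoculture female replicate 1 (0.113). Cd226, at 45, 33, 6 and 17 counts in co-culture, did not pass (-0.32 ± 0.28, edgeR adjusted p = 0.394). Pvrig, outside that gene set for its 4 Panc02 counts, stood at 1.34, 0.945, 1.01 and 1.33 times its expected sum in the 4 co-cultures. That sum uses the summed NK share. Pvrig was at 5.03%, 4.02%, 2.55% and 2.95% of its level in monoculture of the same sex, each above the median estimate of the NK share.

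**Figure D4:**
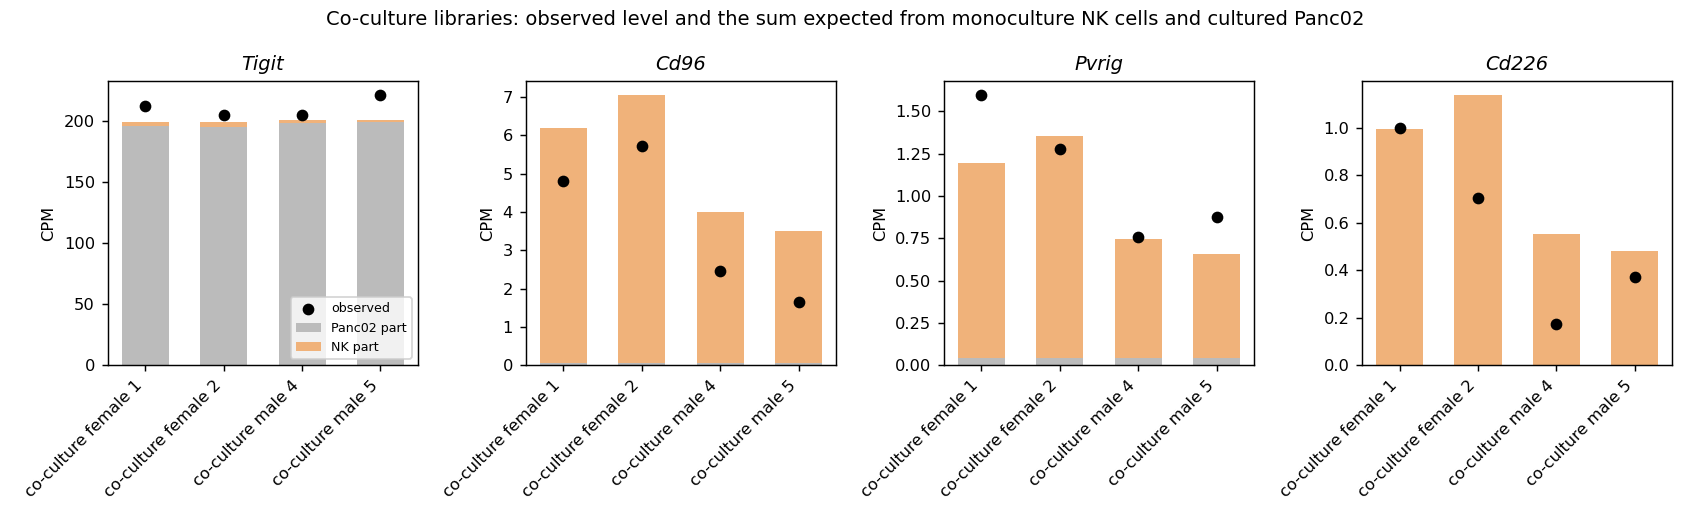
CPM of the 4 receptor genes in each co-culture library (points) over bars of the expected sum. That sum takes the summed NK share at the monoculture level and the Panc02 share at the cultured level. Tigit bars are almost wholly Panc02, and Cd96 lies below its bar in all 4 libraries.

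Crtam moved the opposite way in the same fit. It stood at 2.97 ± 0.335 CPM in co-culture with female and 2.54 ± 0.489 with male NK cells, against 33.2 ± 2.87 CPM in female and 47.6 ± 3.83 CPM in male monoculture (SD, n = 2 each). Relative to other NK-restricted genes it was 2.81-fold higher in co-culture (log2 1.49 ± 0.16, edgeR adjusted p = 1.06e-06). It is the receptor for CADM1, whose gene Cadm1 stood at 144.7 ± 1.46 CPM (n = 2) in Panc02 and at 0.77 ± 0.417 CPM (n = 4) in monoculture. Of the 4 signalling genes that could be tested, 3 were higher: Lck (0.45 ± 0.08), Itgal (0.37 ± 0.06) and Inpp5d (0.32 ± 0.08). Between co-cultures with female and male NK cells, 0 of the 2 genes passed among NK-restricted genes, where 1.89% of the genes did, 0.42% as higher and 1.47% as lower. Cd96 had a log2 difference of 0.67 ± 0.17 (edgeR adjusted p = 0.0508, unadjusted p = 0.00107), and it was the 1 member that DESeq2 called (adjusted p = 0.00681). Fitted over all genes Cd96 was higher with female NK cells by 1.33 ± 0.31 (edgeR adjusted p = 0.0381), 1 of 7 genes where 1.14% of all genes passed, 0.985% as higher and 0.154% as lower. That call was lost without any 1 co-culture library (adjusted p = 0.0736 to 0.329), and the NK share was also higher with female cells.

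Allografts differed from cultured Panc02 in all 8 genes. RNA input was 500 ng for allografts and 100 ng for cell culture, and their counts were deposited separately. Growth in a host and these technical differences cannot be told apart in this comparison. Tigit stood at 5.05, 5.16, 14.6 and 18.7 CPM in tumours of female hosts and 9.91, 12.1, 12.2 and 16.7 CPM in those of male hosts, against 212.5 and 192.8 CPM in cultured Panc02. Every tumour was below both cultures, and Tigit was 16.3-fold lower (log2 -4.03 ± 0.40, edgeR adjusted p = 2.81e-05). Tumours also hold host cells. The 4 epithelial markers stood at 24.2% to 57.9% of their Panc02 level in the tumours and Pvr at 34.9% to 55.4%, whereas Tigit stood at 2.49% to 9.23%. Fibroblast markers (5 genes) summed to 4763 to 14858 CPM in tumours against 1.28 and 2.01 CPM in Panc02, and macrophage markers (5 genes) to 1175 to 1962 CPM. Muscle markers (5 genes) summed to 598.4 to 27209.4 CPM in tumours against 0.811 and 0.902 CPM in Panc02. Endothelial markers (5 genes) summed to 125.4 to 375.2 CPM in tumours against 0.171 and 0.095 CPM in Panc02. The part of host cells in the result was not tested.

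The ligands did not move together, and the part of host cells in their tumour levels was not tested either. Pvr stood at 28.3, 33.7, 35.8 and 31.3 CPM in female and 36.2, 39.3, 45 and 41.2 CPM in male hosts, against 80.2 and 82.2 CPM in Panc02 (log2 -1.10 ± 0.10, edgeR adjusted p = 6.94e-06). Nectin2 was higher, at 49.9, 29.3, 39.3 and 41.5 CPM in female and 53.5, 54.4, 52.7 and 50.9 CPM in male hosts, against 18.5 and 21.3 CPM in Panc02 (log2 1.27 ± 0.19, edgeR adjusted p = 0.000154). Neither gene's tumour range overlapped its range in culture. The TPM ratio of Pvr to Nectin2 was 0.324 to 0.657 in tumours against 2.2 and 2.48 in cultured Panc02. Nectin1 stood at 18.1 to 37.6 CPM, median 26.4, in the 8 tumours, against 5.81 and 8.48 CPM in Panc02 (log2 1.92 ± 0.35, edgeR adjusted p = 0.000734). Nectin3 stood at 3.59 to 8.51 CPM in tumours, median 6.44, and had 2 counts over both Panc02 libraries. The ratio of pooled counts was 271.2, with an exact 95% interval of 75 to 2241.5 that covers counting error only.

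The other receptors appeared in tumours at low levels. Cd96 stood at 1.56 to 6.69 CPM, median 2.8, in tumours against 0.128 and 0 CPM in Panc02 (log2 5.56 ± 0.98, edgeR adjusted p = 0.000585, and 9.89 without Panc02 replicate 1, the library that held all 6 counts). Pvrig stood at 0.383 to 1.64 CPM in tumours against 0.0427 and 0.0475 CPM in Panc02 (log2 4.56 ± 0.75, edgeR adjusted p = 0.000341). Cd226 averaged 1.52 CPM in tumours with 0 counts in Panc02, which is 45.2 times a floor of 3 counts over both Panc02 libraries. Most fragments count more than once, so that floor is not a strict limit and the fold not a strict lower bound. In all, 6 genes were higher and 2 lower, where 62.1% of all genes passed, 38.8% as higher and 23.3% as lower, with a median log2 fold change of 3.24 over the 8 genes and 0.42 over all genes. By TPM the order in tumours was Nectin2 (32.3 ± 6.85, SD, n = 8), Tigit (31.2 ± 12.9), Pvr (14.4 ± 2.49), Nectin1 (9.55 ± 2.76), Cd96 (3.46 ± 1.68), Pvrig (2.46 ± 1.02), Nectin3 (1.18 ± 0.424) and Cd226 (0.743 ± 0.482), and each overlapped the next.

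Of 8 tested genes among the nectin-related adhesion genes and their partners, 4 were higher and 3 lower in allografts (median log2 fold change 1.40, against 0.42 over all genes). Nectin4, an epithelial nectin, was at 4.9 ± 1.42 CPM in tumours (n = 8) against 0.887 ± 0.0129 CPM (n = 2) in Panc02 (log2 2.52 ± 0.38, edgeR adjusted p = 0.000206). Vtn, which encodes vitronectin, an extracellular protein that PVR also binds, was at 2.66 ± 1.92 CPM in tumours and had 0 counts in Panc02. Afdn (-1.38 ± 0.17), Cadm1 (-1.87 ± 0.64) and Cadm4 (-0.86 ± 0.32) were lower, and the Cadm1 and Cadm4 calls did not hold without either Panc02 library (adjusted p = 0.117 to 0.191). Cadm1 was also lost without male-host replicate 8, and Cadm4 without female-host replicate 3 or male-host replicate 7 or 8. Of the 14 signalling genes 13 were higher, led by the leukocyte genes Inpp5d and Vav1, and Ptpn11, which encodes the widely expressed phosphatase SHP-2, was lower (-0.68 ± 0.10).

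Across the 8 tumours, the receptors were set against the summed NK and T cell markers. The NK sum ranged from 24.6 to 79.2 CPM, with Eomes giving 1.29 to 3.13 CPM of it, and the T cell sum from 74.7 to 195 CPM. Over 8 relations, with Pearson r and Spearman rho of log2(CPM + 0.1) and exact permutation p, Cd96 followed the NK markers with r = 0.88 (p = 0.00288, adjusted 0.0199) and rho = 0.86 (p = 0.0107, adjusted 0.0615). It followed the T cell markers with r = 0.87 (exact p = 0.00499, adjusted 0.0199) and rho = 0.76 (p = 0.0368, adjusted 0.0735). Tigit followed the NK markers with r = 0.78 (exact p = 0.0246, adjusted 0.0491) and rho = 0.76 (p = 0.0368, adjusted 0.0735), and Cd226 the T cell markers with r = 0.79 (exact p = 0.0164, adjusted 0.0438) and rho = 0.83 (p = 0.0154, adjusted 0.0615). Without the 2 tumours farthest from the median of the marker sum, these r were 0.81, 0.84, 0.91 and 0.84. No rho passed after adjustment, and the other 4 relations did not pass by r (adjusted p = 0.074 to 0.964). Unlike Cd96 and Cd226, Tigit was high in cultured Panc02 itself, at 212.5 and 192.8 CPM. The part of tumour cells in the relation of Tigit to the NK markers was not tested. Each host sex holds 4 tumours, too few for a value within sex.

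**Figure D5:**
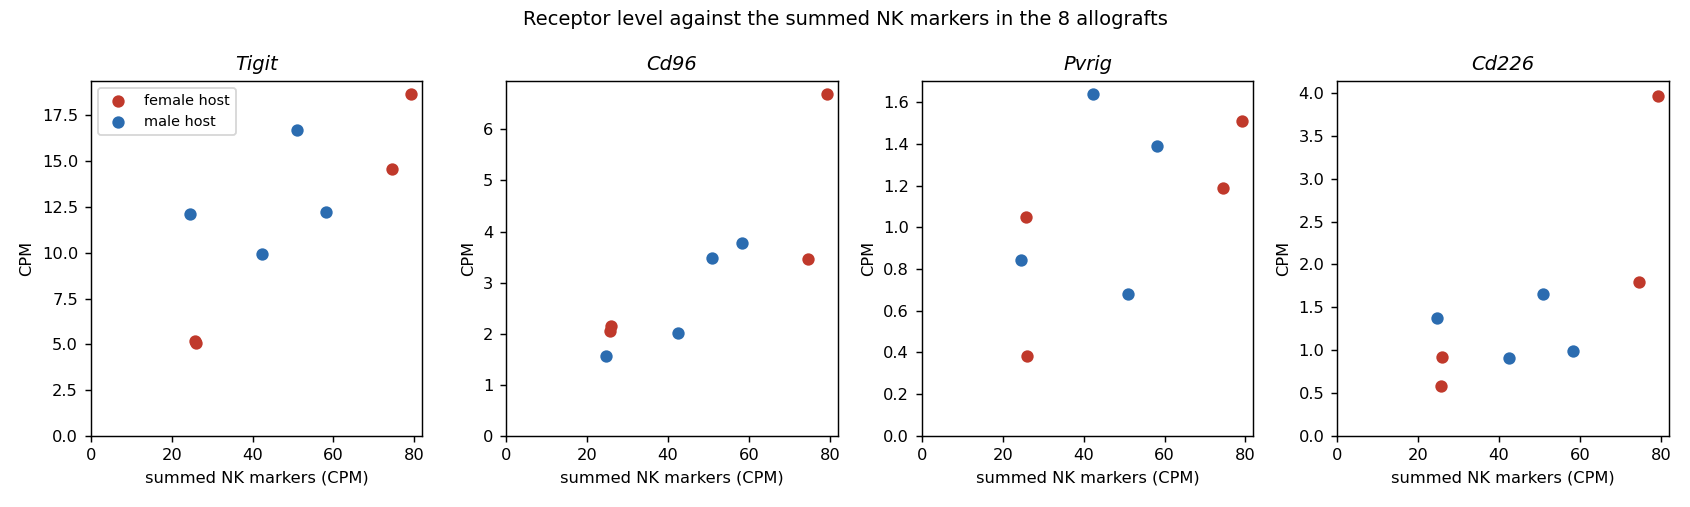
CPM of the 4 receptor genes in each allograft (points, by host sex) against the summed CPM of 8 NK markers. Tigit and Cd96 are highest in the tumour with the highest NK sum, and Pvrig is highest in another tumour.

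None of the 8 genes passed the test for host sex in allografts. By edgeR 0 of 8 passed, where 0.0146% of all genes did, DESeq2 called 678 genes in all and none of the 8, and 3087 genes had an unadjusted p under 0.05. Pvr (log2 -0.29 ± 0.11, edgeR adjusted p = 0.294) and Nectin2 (-0.36 ± 0.16, edgeR adjusted p = 0.324) were among those 3087 genes. Pvr was at 32.3 ± 3.23 CPM in female against 40.4 ± 3.67 CPM in male hosts, and Nectin2 at 40 ± 8.5 against 52.9 ± 1.46 CPM (SD, n = 4 each). For both genes the 4 female values lay below the 4 male values. How many of all 20560 genes separate in this way was not counted, and neither gene passed after adjustment. Tigit differed by -0.18 ± 0.44 and Cd96 by 0.45 ± 0.45. The genes most like the ligands over the 10 Panc02 and allograft libraries were Mybl1 (r = 0.991) for Pvr, Mdfi (0.980) for Nectin1 and Zbtb5 (0.976) for Nectin2, and Nectin3 was under the minimum of 5 CPM on average.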

How the data were processed

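RNA sequencing counts per gene were deposited by the authors in 2 tables for 22 mouse libraries. Per the submitters' processing notes, the counter was featureCounts 2.0.6, and the other tools named were HISAT2 2.2.1, cutadapt 4.4 and SAMtools 1.19.2; per the file headers, genes came from Ensembl release 113 on GRCm39, with strand setting 2, multi-mapping reads counted and each mate counted alone. Most fragments therefore count more than once, and counting intervals are too narrow and cover counting error only. From these counts, CPM used all counts of a library and TPM also the gene length in the file. Depth was 13025549 to 46842646 counts. Low genes were least precise in the shallowest libraries, fresh female replicate 2 (13025549) and monoculture female replicate 1 (14624113).

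Groups came from the sample labels. Tests were edgeR 4.0.16 quasi-likelihood fits in R 4.3.3 (TMM factors, filterByExpr with a minimum count of 10, Benjamini-Hochberg threshold of 0.05) over 8 NK libraries (19623 genes), 6 co-culture and Panc02 libraries (18172), 10 allograft and Panc02 libraries (23264), 8 allografts (20560), and 8 co-culture and monoculture libraries over 476 NK-restricted genes. Comparisons within a fit share libraries. Alternatives were DESeq2 1.42.0, median-ratio size factors, no filter, other sample sets, a replicate block and leaving out each library. Fits were checked on simulated counts. The 8 genes were named in every group; of other list genes, at most 3 called genes per comparison by smallest p, and called genes going against most others, were given. Crtam, Cadm1, Vtn, Cblb in monoculture and Itgal in fresh cells are given beside these for their relation to a member or partner gene. The members and lists were chosen with earlier results of these data known. RefSeq promoters come from another build, GRCm38.p6, than the counts.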

Additional observations from a re-analysis of the deposited data

Results flagged for a closer look

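The sex difference in Tigit was not the same in monoculture and in fresh NK cells. Female cells stood at 104.1 CPM and male cells at 106.3 CPM on average in monoculture, and female cells at 24.4 CPM and male cells at 67.8 CPM in fresh cells. The interaction was 1.43 ± 0.22 on the log2 scale (edgeR, adjusted p = 0.0153), which is a test of the difference itself. The call was lost without any 1 of the 4 female libraries (adjusted p = 0.0539 to 0.167).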

How the results depend on the processing

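Of the counts of genes called, 63 of 76 stayed within 1.5 times under settings other than leaving out a library. For members, co-culture against monoculture had 0 calls with Panc02 at most 0.03% of monoculture, since Cd96 then left the gene set, and sex in co-culture had 1 by DESeq2 among NK-restricted genes. Over all genes, DESeq2 called 678 for host sex, 23 for sex in co-culture among NK-restricted genes, 38 for sex in monoculture and 954 for the interaction. Without a filter these were 14 for host sex, 422 for sex in co-culture, 109 for sex in monoculture and 872 for the interaction, and with 12 NK and co-culture libraries 23 for sex in monoculture and 546 for the interaction. The causes were not tested. With the replicate block, 8 members and 8714 genes were called for monoculture against fresh cells, 1 and 212 for co-culture against monoculture, and 1 and 490 for the interaction, against 323 without it. Deviations of same-numbered libraries correlated at 0.045 (female) and 0.331 (male) between monoculture and fresh cells. Between co-culture and monoculture they correlated at -0.020 (female) and 0.031 (male). Of these, only the male value of 0.331 was above the minimum of 0.1 set for pairing. Names of same-numbered libraries share a prefix across the NK conditions. Whether the numbers mark the same animals was thus not settled, and the main fits did not pair them. Leaving out single libraries gave 6 to 7 members and 7636 to 8660 genes for monoculture against fresh cells, 0 to 2 and 537 to 1918 for sex in fresh cells, 0 to 1 and 115 to 612 for the interaction, and 18 to 29 genes for sex in monoculture. It gave 0 to 1 members for co-culture against monoculture, 3 to 4 and 1527 to 3530 for co-culture against Panc02, 0 to 1 and 97 to 215 for sex in co-culture, 0 to 1 and 6 to 15 among NK-restricted genes, and 0 to 4 genes for host sex. Sign changed, in members that were not called, only among these fits. For host sex the log2 ranges were -0.1 to 0.92 (Cd226), -0.03 to 0.66 (Cd96), -0.04 to 0.34 (Nectin1), -0.14 to 0.26 (Nectin3), -0.32 to 0.19 (Pvrig) and -0.56 to 0.08 (Tigit). For sex in fresh cells they were -0.43 to 0.01 (Cd226), -1.23 to 0.85 (Nectin3), -0.16 to 0.09 (Pvr) and -0.27 to 0.08 (Pvrig), and in monoculture -0.06 to 0.06 (Cd96), -3.28 to 0.7 (Nectin2) and -0.34 to 0.06 (Pvr). For the interaction they were -3.6 to 0.38 (Nectin2), -0.3 to 1.78 (Nectin3) and -0.31 to 0.09 (Pvr). For sex in co-culture they were -0.2 to 0.04 (Nectin2) and -0.02 to 0.05 (Pvr), and for co-culture against Panc02 -0.21 to 0.34 (Nectin1).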
